A study of Homo sapiens with 3 samples.

Results

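The genes described here are the 41 genes of the autophagy machinery and its cargo receptors, picked by symbol from the 22464 genes of the deposited expression table after Ensembl identifiers had been matched to symbols. All 41 were found. RNA was sequenced from SK-Hep-1, an established human line that came from a liver adenocarcinoma. The control, shNC, is labelled as the negative control, and the lines sh1089-1 and sh1089-2 each carried a different hairpin against the long noncoding RNA LINC01089. The knockdown lines are stable and were made by lentiviral infection, and the question was how the loss of LINC01089 alters gene expression. Each group is 1 library, so no difference below has a replicate check and none has a p-value. The level of LINC01089 itself was not analysed here.

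Autophagy encloses cytoplasm in a double membrane, the autophagosome, and delivers it to the lysosome. The ULK kinase complex starts the process, the class III phosphatidylinositol 3-kinase complexes mark the membrane with lipid, and ATG9 vesicles, ATG2 and WIPI proteins help the membrane grow. A pair of ubiquitin-like conjugation systems then attaches the LC3 and GABARAP proteins to the membrane, where they bind receptors that carry the cargo. The best known receptor is p62, the product of SQSTM1, which also binds KEAP1 and is itself degraded by autophagy, so its mRNA and protein need not move together.

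The values are FPKM, fragments scaled to gene length and library size. Where 3 values follow a gene, they stand in the order shNC, sh1089-1, sh1089-2. Whole reads could be worked back from them, with library totals of 8359832 to 10698480 reads, and the ranges in parentheses after a ratio are 95% Clopper-Pearson intervals from those reads. The intervals cover counting error only, and no molecular identifiers are named in the labels. The tissue label of these samples is liver. Of the hepatocyte markers, APOA1 and TTR were listed at 0 in all 3 libraries, HNF4A reached at most 0.0654 FPKM, AFP had 0.488, 0.483 and 0.294, and SERPINA1 had 4.69, 5.91 and 8.004. The 5 endothelial markers measured (PECAM1, CDH5, VWF, TEK and ERG) stayed at or below 0.0584 FPKM. Of the 4 mesenchymal markers, VIM had 922, 1171 and 1445 FPKM and CDH2 had 6.01, 11.35 and 12.3, both higher in the hairpin lines. SPARC had 312, 230 and 307.5 FPKM, lower in both, and FN1 had 20.2, 18.5 and 32.15, lower in sh1089-1 and higher in sh1089-2. The part of these markers in the results below was not tested. In bulk RNA, fewer cells that express a gene and less RNA per cell cannot be told apart.

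Most of the autophagy genes were expressed at moderate levels. In shNC the 41 genes ran from 0.974 to 337 FPKM with a median of 8.84, against a median of 6.38 FPKM over the 11198 genes whose mean was at least 1 FPKM. Of the 41 genes, 40 reached 1 FPKM in shNC and 19 reached 10. PIK3C3, the catalytic lipid kinase, was the member whose mean stayed below 1, with 0.974, 0.982 and 0.820 FPKM, so the counts below cover 40 genes. SQSTM1 was the highest of the 41 in every library and ATG10 the next, although the ATG10 value is shared with another gene (below). The order beneath them moved: GABARAPL1 had rank 4 in shNC, rank 9 in sh1089-1 and rank 6 in sh1089-2.

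**Figure D1:**
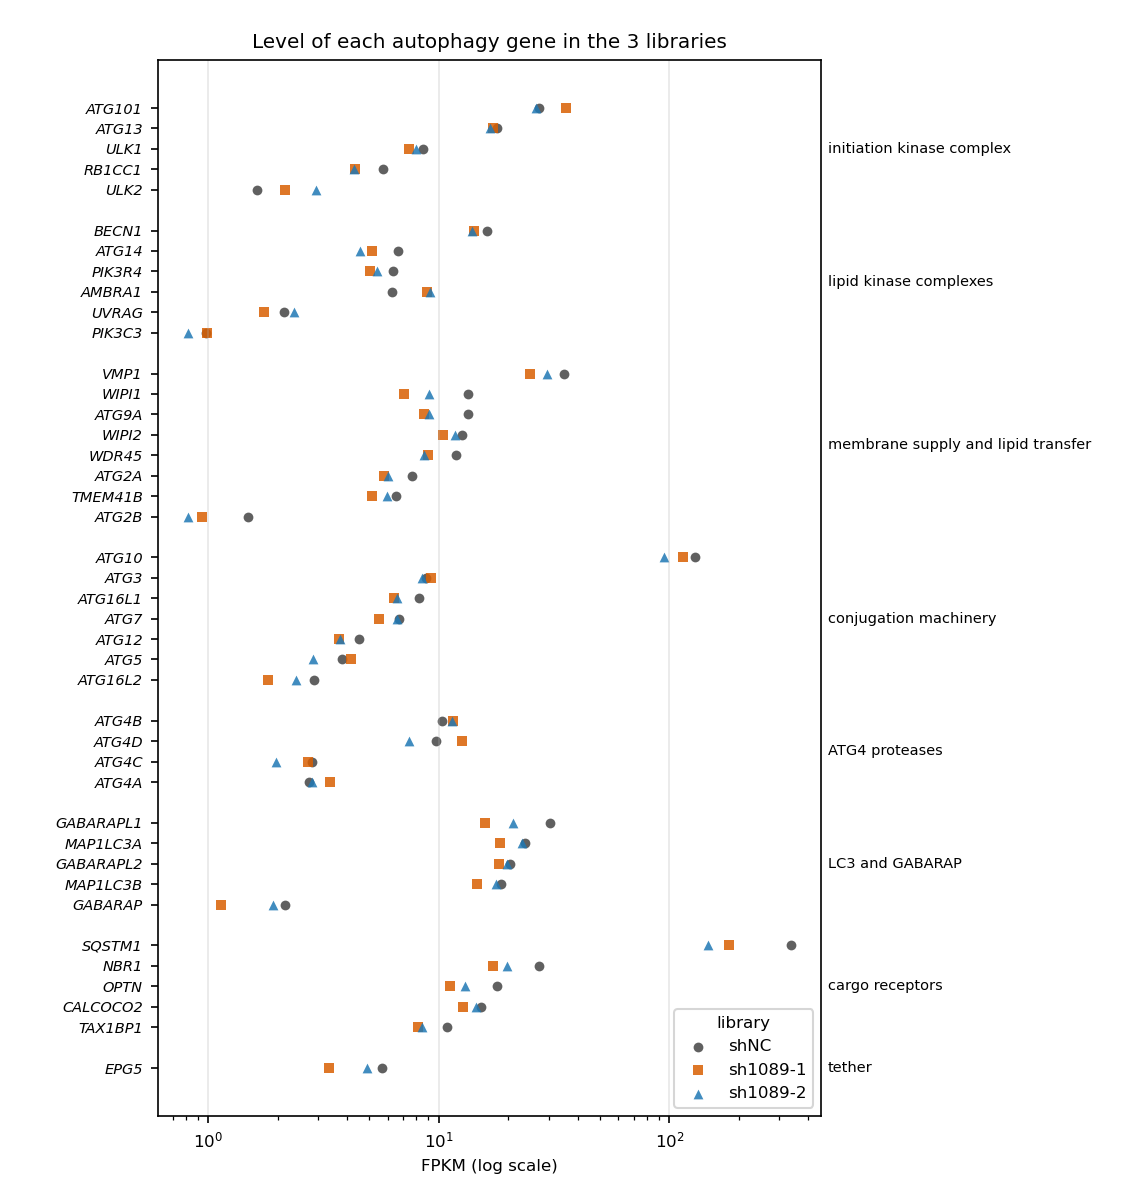
FPKM on a log axis of each of the 41 autophagy genes in the 3 libraries, 1 point per library, with genes grouped by role and ordered by their shNC level. SQSTM1 lies at 337, 181 and 147 FPKM in shNC, sh1089-1 and sh1089-2, far to the right of the other cargo receptors.

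The autophagy genes lay mostly below shNC in each hairpin line, by small amounts. In sh1089-1, 32 of 40 were lower than in shNC by any amount (80%), where 53.6% of all 11198 genes were lower and 46.3% higher, and the median difference in log2(FPKM + 1) was −0.29 against −0.03 over all genes. In sh1089-2, 35 of 40 were lower (87.5%), where 55.1% of all genes were lower and 44.8% higher, with a median of −0.21 against −0.04. Both comparisons use the same shNC library, so they are not independent of each other. Fewer members passed a size threshold of 1.5-fold in log2(FPKM + 1). In sh1089-1, 6 of 40 were at least 1.5-fold lower (15%), against 5.83% of all genes, and 0 were at least 1.5-fold higher, against 5.27%. In sh1089-2, 1 of 40 was lower (2.5%), against 5.63%, and 0 were higher, against 4.89%. The share at least 1.5-fold lower was thus above that of all genes in sh1089-1. In sh1089-2 it rested on 1 gene, too few to set it apart from the share of all genes.

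At 2-fold, 0 of 40 were higher (all genes 1.38%) and 0 lower (1.51%) in sh1089-1, and 0 were higher (1.63%) and 1, SQSTM1, lower (1.61%) in sh1089-2. When only protein-coding genes on 100 reads or more were taken, which keeps 39 of the 40, 0 members were 1.5-fold higher and 6 lower in sh1089-1 (all such genes 4.49% and 4.36%), and 0 were higher and 1 lower in sh1089-2 (3.90% and 4%).

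The threshold cut through a run of close values. In sh1089-1, EPG5 lay just inside it at −0.63 and ATG9A just outside at −0.57. In sh1089-2, SQSTM1 was inside at −1.19 and the next member, ATG9A, had −0.51, while on the higher side ULK2 stopped just short at 0.58. After rescaling each library to TPM, which lets 41 members and 13817 genes pass the filter, sh1089-2 had 2 members at least 1.5-fold higher and 2 lower in place of 0 and 1, where 9.60% and 8.62% of all genes were. With a pseudocount of 0.1, sh1089-1 had 10 of 40 lower in place of 6, where 9.75% of all genes were lower.

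**Figure D2:**
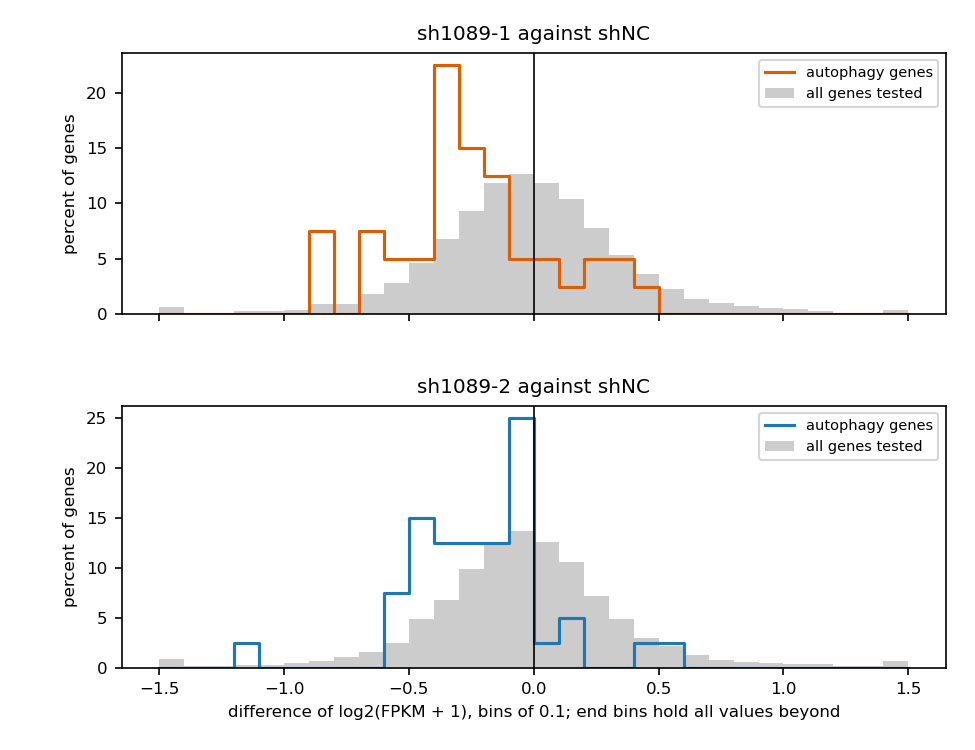
Share of genes, in percent, by difference in log2(FPKM + 1) from shNC in bins of 0.1, for all 11198 genes (grey bars) and for the 40 autophagy genes (coloured line), with sh1089-1 above and sh1089-2 below. Most of the autophagy genes sit left of zero in each panel, with medians of −0.29 and −0.21.

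Of the 7 groups with more than 1 gene, the cargo receptors had the lowest medians, at −0.63 in sh1089-1 and −0.43 in sh1089-2. SQSTM1 (ENSG00000161011, chromosome 5, 179806398 to 179838078 on the plus strand of GRCh38) stood at 337, 181 and 147 FPKM, on 27188, 13009 and 9281 reads. It was highest in shNC and took 0.254%, 0.137% and 0.111% of all reads. The level was 1.86-fold lower in sh1089-1 (1.82 to 1.90) and 2.29-fold lower in sh1089-2 (2.24 to 2.34), and it was the member furthest below shNC in sh1089-2. SQSTM1 was also the 1 receptor with less in sh1089-2 than in sh1089-1, at a ratio of 0.813 (0.792 to 0.835).

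The other receptors were lower by less, and lowest in sh1089-1. NBR1 (ENSG00000188554, chromosome 17, 43170481 to 43211689, plus strand), a receptor related to p62 in domain structure, had 27.1, 17.1 and 19.7 FPKM on 2435, 1372 and 1385 reads. It was 1.58-fold lower in sh1089-1 (1.48 to 1.69) and 1.37-fold lower in sh1089-2 (1.29 to 1.47). OPTN (ENSG00000123240, chromosome 10, 13099449 to 13138308, plus strand) encodes optineurin, a receptor for damaged mitochondria and bacteria. It had 17.9, 11.2 and 13.0 FPKM on 983, 548 and 559 reads, 1.60-fold (1.44 to 1.78) and 1.37-fold (1.24 to 1.53) lower. The 50 nearest genes had medians of −0.17 and −0.02 around NBR1 and −0.02 and −0.05 around OPTN. TAX1BP1, which works with NBR1 on protein aggregates, had 10.8, 8.15 and 8.48 FPKM. CALCOCO2, whose product NDP52 targets bacteria and mitochondria, had 15.3, 12.8 and 14.5 FPKM, and its ratio in sh1089-2 of 0.948 had an interval across 1 (0.873 to 1.03). Summed over the 5 receptors, the level came to 408, 230.5 and 203 FPKM. SQSTM1 made up 82.6%, 78.6% and 72.6% of that sum, and the other 4 receptors together had 71.1, 49.3 and 55.7 FPKM.

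SQSTM1 shares exon bases with 2 neighbours. MRNIP, a DNA repair factor gene on the opposite strand, shares 1582 exon bases with SQSTM1 and had 12942, 6021 and 4505 reads. Libraries were strand-specific, but whether the counting used the strand is not given in the sources used here. With all MRNIP reads taken away from it, SQSTM1 kept 14246, 6988 and 4776 reads. That left it lower by 1.82-fold (1.76 to 1.87) in sh1089-1 and by 2.33-fold (2.26 to 2.41) in sh1089-2. MRNIP itself had 143, 74.6 and 63.6 FPKM, lower in both hairpin lines much as SQSTM1 was. Taking its reads away could therefore change the ratio little, and which gene the shared reads came from was not tested. MGAT4B, also opposite, shares 105 bases, and without its reads SQSTM1 was lower by 2.01-fold and 2.59-fold. The 50 nearest genes had median differences of 0.05 and 0.05, against −0.89 and −1.19 for SQSTM1 itself.

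The promoters of 3 members with low ratios in the hairpin lines, SQSTM1, GABARAPL1 and WIPI1, are given here because they are the DNA from which these mRNAs start. Each is the 250 bases before a RefSeq transcript start (GRCh38.p14), read 5′ to 3′ on the gene's strand. Capitals mark GGGCGG on either strand, the GC box bound by SP1, and TGACGTCA, the cyclic AMP response element.
SQSTM1, chr5:179820655-179820904, plus strand: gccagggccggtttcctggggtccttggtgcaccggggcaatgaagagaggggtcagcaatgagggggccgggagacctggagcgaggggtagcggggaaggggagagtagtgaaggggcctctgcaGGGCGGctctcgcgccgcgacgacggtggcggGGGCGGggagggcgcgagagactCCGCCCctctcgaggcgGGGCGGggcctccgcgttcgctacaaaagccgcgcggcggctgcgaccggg
GABARAPL1, chr12:10212627-10212876, plus strand: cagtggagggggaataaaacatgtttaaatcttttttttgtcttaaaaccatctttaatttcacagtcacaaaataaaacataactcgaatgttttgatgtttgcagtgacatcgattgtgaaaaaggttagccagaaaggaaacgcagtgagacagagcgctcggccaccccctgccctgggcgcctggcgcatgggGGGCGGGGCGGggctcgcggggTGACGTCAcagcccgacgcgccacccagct
WIPI1, chr17:68457497-68457746, minus strand: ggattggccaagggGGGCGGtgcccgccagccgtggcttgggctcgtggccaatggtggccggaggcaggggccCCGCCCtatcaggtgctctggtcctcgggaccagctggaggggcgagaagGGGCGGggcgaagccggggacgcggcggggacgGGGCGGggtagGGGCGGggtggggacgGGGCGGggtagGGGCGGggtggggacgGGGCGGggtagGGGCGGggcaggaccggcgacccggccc
RefSeq lists 3 starts for SQSTM1, and the one shown is the furthest downstream. GC boxes are frequent, with 4 in the SQSTM1 window, 2 in that of GABARAPL1 and 9 in that of WIPI1, and 44.9% of all 34943 promoter windows of 300 bases hold at least 1. TGACGTCA occurs in the GABARAPL1 window and in 1.84% of all windows. Both motifs were chosen after the data had been seen.

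Among the LC3 and GABARAP genes, GABARAPL1 stood lowest against shNC. These genes encode the small ubiquitin-like proteins that are fixed to the autophagosome membrane. GABARAPL1 (ENSG00000139112, chromosome 12, 10212458 to 10223130, plus strand) was measured at 30.2, 15.8 and 20.95 FPKM, on 1310, 611 and 710 reads. It was 1.91-fold lower in sh1089-1 (1.73 to 2.11) and 1.44-fold lower in sh1089-2 (1.32 to 1.58), with the hairpin libraries apart from each other as well, at a ratio of 1.32 (1.19 to 1.48). It was the highest of the 5 in shNC and stood behind MAP1LC3A and GABARAPL2 in sh1089-1.

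MAP1LC3B, which encodes the LC3B protein used as the common marker of autophagosomes, had 18.6, 14.7 and 17.8 FPKM. It was 1.27-fold lower in sh1089-1 (1.15 to 1.40), while in sh1089-2 its ratio to shNC was 0.953 (0.866 to 1.05). MAP1LC3A, for LC3A, had 23.6, 18.4 and 22.95 FPKM on 582, 404 and 442 reads, 1.28-fold lower in sh1089-1 (1.13 to 1.46) and at a ratio of 0.972 in sh1089-2 (0.857 to 1.10). For both LC3 genes the interval lay below 1 in sh1089-1 and crossed 1 in sh1089-2. FBXO31 on the opposite strand shares 150 exon bases with MAP1LC3B and had 313, 282 and 253 reads to its 1004, 705 and 748. Less those, MAP1LC3B was lower by 1.455-fold (1.29 to 1.65) in sh1089-1, with a ratio of 0.917 in sh1089-2 (0.815 to 1.03). The near copy MAP1LC3B2 had 3.90, 3.12 and 3.25 FPKM. GABARAPL2, also called GATE-16, had 20.5, 18.3 and 19.7 FPKM on 659, 524 and 495 reads, and its intervals reached across 1 in both hairpin lines (0.795 to 1.00 and 0.854 to 1.08). GABARAP was listed low, at 2.16, 1.13 and 1.90 FPKM on 45, 21 and 31 reads. Its ratio to shNC of 0.524 in sh1089-1 ran from 0.297 to 0.898, and a difference in sh1089-2 was not detectable at this depth (0.539 to 1.42). Summed, the 5 genes had 95.1, 68.3 and 83.2 FPKM.

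**Figure D3:**
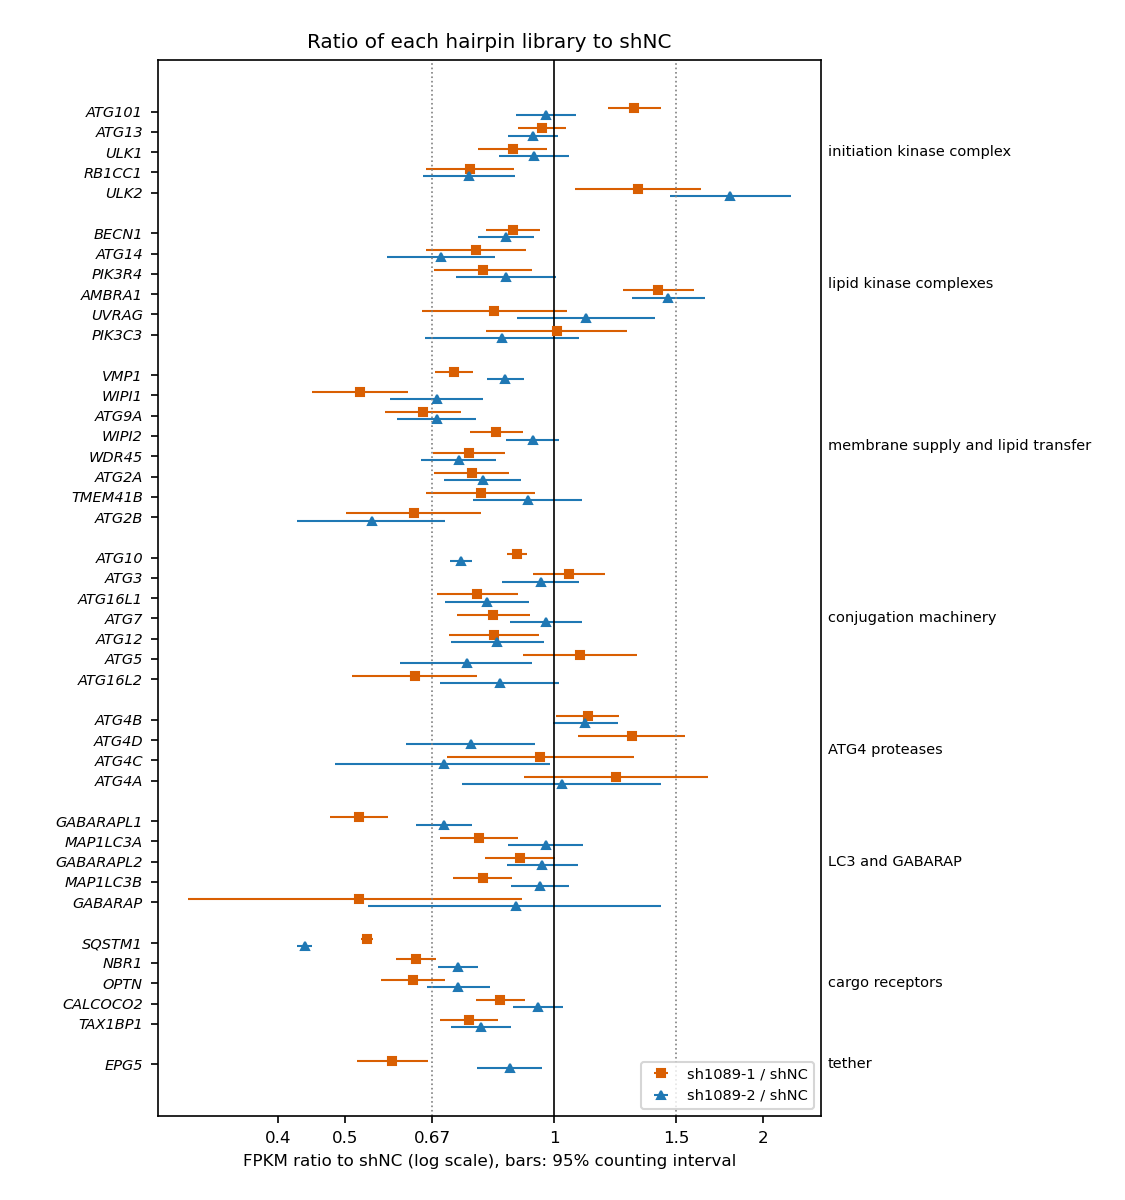
Ratio of FPKM in sh1089-1 (squares) and sh1089-2 (triangles) to shNC on a log axis for each of the 41 genes, with 95% counting intervals as bars, a solid line at 1 and dotted lines at ratios of 1.5 and its inverse. SQSTM1 in sh1089-2 lies at 0.437, and ULK2 and AMBRA1 lie right of 1 with both hairpins.

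All 8 genes of membrane supply and lipid transfer had lower values than shNC in sh1089-1, and 8 of 8 did in sh1089-2. Of all genes, 53.6% and 55.1% were lower. The median differences of the 8 genes were −0.37 and −0.36. In sh1089-2 the intervals of WIPI2 (0.853 to 1.02) and TMEM41B (0.765 to 1.095) crossed 1. WIPI1 binds phosphatidylinositol 3-phosphate on the growing membrane. Its gene (ENSG00000070540, chromosome 17, 68420948 to 68457513, minus strand) had 13.4, 7.03 and 9.07 FPKM. That put it below shNC by 1.90-fold (1.62 to 2.24) in sh1089-1 and by 1.475-fold (1.27 to 1.72) in sh1089-2. ARSG, a sulfatase gene on the opposite strand, shares 828 exon bases with it and had 155, 70 and 69 reads to the 487, 228 and 258 of WIPI1. Less all of those reads, WIPI1 was lower by 1.87-fold (1.54 to 2.28) in sh1089-1 and by 1.37-fold (1.145 to 1.65) in sh1089-2. ARSG itself had 2.20, 1.115 and 1.25 FPKM, lower in both lines too, so taking its reads away could change the ratio little. The 50 nearest genes of WIPI1 had medians of −0.23 and −0.17, in the same direction and smaller.

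ATG9A, the lipid scramblase of the seed vesicles, had 13.3, 8.64 and 9.04 FPKM, 1.54-fold (1.36 to 1.75) and 1.475-fold (1.30 to 1.68) lower. ATG2A and ATG2B encode proteins that move lipid from the endoplasmic reticulum into the new membrane. ATG2B had 1.49, 0.935 and 0.814 FPKM, 1.59-fold (1.28 to 1.99) and 1.83-fold (1.44 to 2.34) lower as plain ratios, on 227, 127 and 97 reads. The pseudocount of 1 shrinks so low a gene, and its difference on the log2(FPKM + 1) scale was −0.36 and −0.46. ATG2A had 7.63, 5.80 and 6.02 FPKM. Of the remaining WIPI family, WDR45 had 11.9, 8.94 and 8.65 FPKM, 1.33-fold (1.18 to 1.497) and 1.37-fold (1.21 to 1.56) lower, while WIPI2, which recruits ATG16L1, had 12.6, 10.4 and 11.8. VMP1 and TMEM41B encode scramblases of the endoplasmic reticulum. VMP1 had 34.8, 24.9 and 29.6 FPKM, 1.395-fold (1.31 to 1.485) and 1.175-fold (1.105 to 1.25) lower, and TMEM41B had 6.53, 5.13 and 5.98. The 50 nearest genes of TMEM41B on chromosome 11 had medians of −0.21 and −0.22, beside its own differences of −0.30 and −0.11. PTRH2 on the opposite strand shares 162 exon bases with VMP1 and had 1182, 899 and 801 reads to its 2551, 1629 and 1696. Less those reads, VMP1 was lower by 1.67-fold (1.53 to 1.83) in sh1089-1 and by 1.195-fold (1.10 to 1.30) in sh1089-2. GSKIP shares 419 with ATG2B and had 170, 91 and 105 reads. Taking those away would leave ATG2B with 57, 36 and −8 reads, so no corrected ratio is given for it.

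The genes that start autophagy split, with ULK2 the member furthest above shNC in sh1089-2. ULK1, the main initiating kinase, had 8.54, 7.44 and 7.975 FPKM. Its paralog ULK2 had 1.63, 2.15 and 2.92 FPKM, 1.32-fold (1.07 to 1.63) and 1.79-fold (1.47 to 2.19) higher as plain ratios on 172, 202 and 241 reads. ULK2 lies on the short arm of chromosome 17, and its 50 nearest genes were above shNC too, with medians of 0.39 and 0.29. Their part in its result was not tested. ATG13, the regulatory subunit, had 17.9, 17.2 and 16.7 FPKM, with intervals across 1 in both lines. RB1CC1, the scaffold FIP200, had 5.71, 4.32 and 4.31 FPKM, 1.32-fold (1.14 to 1.53) and 1.33-fold (1.14 to 1.55) lower. ATG101, which stabilises ATG13, had 27.2, 35.5 and 26.4 FPKM and so stood above shNC in sh1089-1 alone, at a ratio of 1.31 (1.19 to 1.43).

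In the lipid kinase complexes, 4 of the 5 genes tested were lower in sh1089-1 and 3 of 5 in sh1089-2, where 53.6% and 55.1% of all genes were. AMBRA1 was above shNC in each and UVRAG above it in sh1089-2. AMBRA1, a BECN1 partner that is also a cyclin D ubiquitin ligase adaptor, had 6.29, 8.88 and 9.18 FPKM, 1.41-fold (1.26 to 1.59) and 1.46-fold (1.30 to 1.65) higher. Its 50 nearest genes had medians of 0.06 and 0.02. BECN1, the scaffold of these complexes, had 16.3, 14.2 and 13.9 FPKM, 1.15-fold (1.05 to 1.26) and 1.17-fold (1.07 to 1.29) lower, though PSME3 and CNTD1 on the other strand share exon bases with it. PSME3 had more reads than BECN1 in every library. Less the reads of CNTD1, the ratio of BECN1 in sh1089-1 was 0.957, with an interval across 1 (0.853 to 1.07). In sh1089-2 it was 0.870, with an interval below 1 (0.770 to 0.982). ATG14, which directs the complex to autophagy, had 6.64, 5.13 and 4.57 FPKM, 1.29-fold (1.10 to 1.53) and 1.45-fold (1.22 to 1.74) lower. The regulatory subunit PIK3R4 had 6.345, 5.02 and 5.41 FPKM. UVRAG, the subunit of the endosomal complex, had 2.125, 1.74 and 2.36 FPKM, and its intervals crossed 1 in both lines.

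Of the 7 conjugation genes, 5 were lower than in shNC in sh1089-1 and 7 in sh1089-2, where 53.6% and 55.1% of all genes were. The median differences of the 7 were −0.23 and −0.22, and none was 1.5-fold lower in log2(FPKM + 1). The 7 include ATG10, whose value is shared with another gene (below) and was lower in both lines. ATG7, the activating enzyme, had 6.73, 5.50 and 6.555 FPKM, and ATG3, the conjugating enzyme for LC3, had 8.84, 9.27 and 8.46. ATG12, the ubiquitin-like protein of the first system, had 4.51, 3.69 and 3.74 FPKM, and its partner ATG5 had 3.82, 4.16 and 2.86. ATG5 was thus 1.34-fold lower in sh1089-2 (1.08 to 1.67) and at a ratio of 1.09 in sh1089-1 (0.902 to 1.31). ATG16L1, which places the ATG12 and ATG5 conjugate on the membrane, had 8.24, 6.39 and 6.59 FPKM, 1.29-fold (1.13 to 1.48) and 1.25-fold (1.09 to 1.44) lower. Its less studied relative ATG16L2 had 2.875, 1.81 and 2.40 FPKM on 262, 147 and 171 reads, as a plain ratio 1.59-fold lower in sh1089-1 (1.29 to 1.96), with an interval across 1 in sh1089-2 (0.685 to 1.02). ATG7, ATG12 and ATG16L2 share exon bases with VGLL4 (358 to 662 reads), AP3S1 (402 to 693) and FCHSD2 (187 to 239) on the opposite strand.

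ATG10, the conjugating enzyme for ATG12, was listed at 129, 114 and 94.8 FPKM, next to SQSTM1 and far above the other conjugation genes. RPS23, a ribosomal protein gene on the opposite strand, shares 374 exon bases with the annotated ATG10 gene (chromosome 5, 81972025 to 82276857). RPS23 had 7497, 5863 and 4298 reads, and ATG10 had 7522, 5922 and 4314, a surplus of 25, 59 and 16. The ATG10 value cannot be told apart from that of RPS23 here, so neither its level nor its ratios of 0.884 and 0.734 were read as those of ATG10. It remains among the 40 genes of the counts above.

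**Figure D4:**
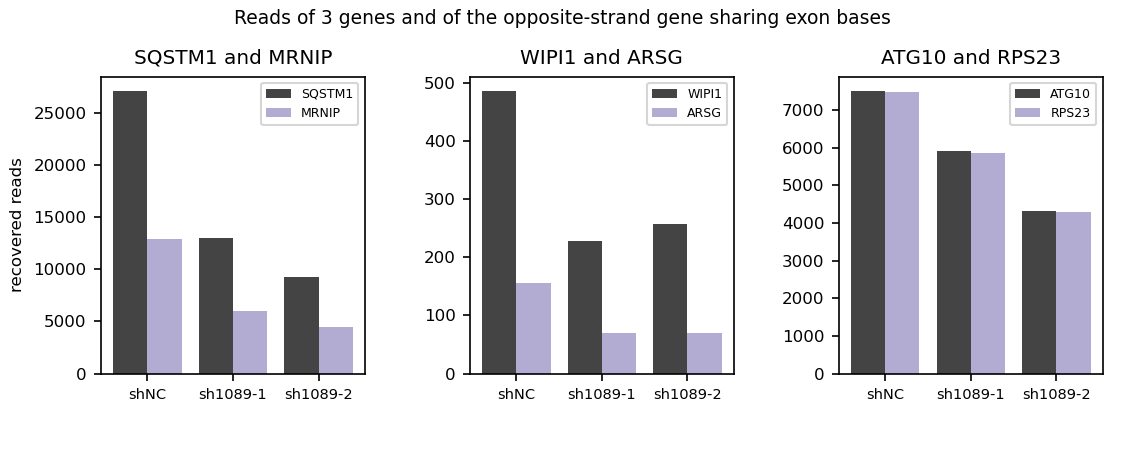
Recovered reads, on axes that start at 0, of SQSTM1, WIPI1 and ATG10 (dark bars) and of the opposite-strand gene that shares exon bases with each (light bars) in the 3 libraries. SQSTM1 had 27188 reads in shNC to 12942 of MRNIP, while ATG10 and RPS23 were nearly equal, at 7522 and 7497.

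The ATG4 proteases, which trim LC3 and GABARAP proteins before conjugation and release them afterwards, showed no common direction. ATG4B, the most active of them toward LC3, had 10.3, 11.5 and 11.4 FPKM, with ratios to shNC of 1.12 (1.006 to 1.24) and 1.11 (0.995 to 1.23). ATG4D had 9.77, 12.6 and 7.40 FPKM, above shNC in sh1089-1 (ratio 1.29, 1.08 to 1.54) and below it in sh1089-2 (0.758, 0.611 to 0.938). THAP4 and KRI1 on the opposite strands share exon bases with ATG4B and ATG4D and had more reads than they did in every library. ATG4A had 2.75, 3.37 and 2.82 FPKM and ATG4C 2.82, 2.69 and 1.96, on at most 94 reads in any library.

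EPG5 (ENSG00000152223, chromosome 18, 45847609 to 45967339, minus strand), a tether that ties autophagosomes to late endosomes and lysosomes, had 5.68, 3.32 and 4.90 FPKM, on 835, 435 and 563 reads. It was 1.71-fold lower in sh1089-1 (1.52 to 1.92) and 1.16-fold lower in sh1089-2 (1.04 to 1.29). No other listed gene shares exon bases with it in the annotation, and its 50 nearest genes had medians of −0.07 and −0.15.

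The hairpin lines were also set against each other, which leaves the shNC library out. In sh1089-2, 25 of 40 members were higher than in sh1089-1 by any amount (62.5%), where 47.7% of all genes were higher and 52.1% lower, and the median difference was 0.055 against −0.01 over all genes. All 5 LC3 and GABARAP genes and 4 of the 5 receptors were higher in sh1089-2 than in sh1089-1. EPG5, the member furthest above, had a ratio of 1.475 (1.30 to 1.68). At least 1.5-fold lower was 1 of 40 (2.5%), against 2.30% of all genes, namely ATG4D at 0.587 (0.475 to 0.721), and 0 were at least 1.5-fold higher, against 2.47%. At 2-fold, 0 were higher (all genes 0.839%) and 0 lower (0.884%), and with protein-coding genes on 100 reads or more 0 were 1.5-fold higher (1.10%) and 1 lower (0.899%). After rescaling to TPM, 1 of 41 was higher and 1 lower at 1.5-fold, where 7.49% and 4.96% of all genes were.

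The rest of the pathway was followed in 71 further genes: the control by mTOR, AMPK and TFEB, other selective receptors, and fusion with the lysosome. Of these, 60 had a mean of at least 1 FPKM. In sh1089-1, 4 of 60 were at least 1.5-fold lower (6.67%), close to the 5.83% of all genes, and 0 were higher, against 5.27%. In sh1089-2, 1 of 60 was lower (1.67%, against 5.63%) and 0 were higher, against 4.89%. After rescaling to TPM, 1 of 67 was higher and 8 lower in sh1089-1 (all genes 8.11% and 10.7%), and 4 were lower in sh1089-2 (8.62%). Without that rescaling, 43 of 60 were lower by any amount in sh1089-1 (71.7%, all genes 53.6%). In sh1089-2, 40 of 60 were (66.7%, all genes 55.1%). The medians of the 60 were −0.09 and −0.12, against −0.03 and −0.04 over all genes. BNIP3L, a mitophagy receptor also called NIX, had 35.1, 21.9 and 24.7 FPKM, 1.61-fold (1.48 to 1.75) and 1.42-fold (1.31 to 1.55) lower. PINK1, the kinase that flags damaged mitochondria, had 35.3, 21.6 and 26.3 FPKM, 1.63-fold (1.51 to 1.77) and 1.34-fold (1.24 to 1.45) lower. SEC62, a translocon protein and receptor for the endoplasmic reticulum, had 6.685, 3.985 and 3.76 FPKM, 1.68-fold (1.46 to 1.94) and 1.78-fold (1.53 to 2.07) lower. TP53INP1, a stress-induced LC3-binding protein, had 3.975, 2.06 and 4.05 FPKM and was lower in sh1089-1 by 1.93-fold (1.53 to 2.43).

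RefSeq promoter windows, from 250 bases before to 50 after each start, were at hand for 36 of the 41 genes, 45 windows in all, and not for ATG4D, UVRAG, RB1CC1, MAP1LC3A and EPG5. Over the 250 bases before each start, their median GC content was 62.8%, with 20 CpG, against 58% and 11 over all windows. The E-box CACGTG, the core of the element bound by TFEB and its relatives, was searched on both strands, as were the longer CLEAR palindrome and TGACNNNGC, the antioxidant response core that NRF2 binds. CACGTG occurred in ATG3 and ATG14 and in 7.23% of all 34943 windows, the CLEAR palindrome in 0 of the 36 genes and 0.352% of windows, and TGACNNNGC in ATG101, MAP1LC3B and CALCOCO2 and in 13.3% of windows. These 30-base stretches, on the gene's strand with the motif in capitals, show the match nearest to the start in each E-box gene and the match in MAP1LC3B.
ATG14, chr14:55411834-55411863, minus strand: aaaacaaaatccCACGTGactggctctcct
ATG3, chr3:112561940-112561969, minus strand: agagtctagtgtCACGTGaggccccggtgg
MAP1LC3B, chr16:87392280-87392309, plus strand: gcgagtcaccTGACCAGGCtgcgggctgag
Of the 6 members at least 1.5-fold lower in sh1089-1, the 5 with a window held neither CACGTG nor TGACNNNGC, and ATG14 and ATG3, which hold CACGTG, had differences of −0.32 and 0.06 there. A match is only a run of letters in this window, and a window without one may have sites elsewhere.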

How the data were processed

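mRNA was enriched from Trizol-extracted total RNA and strand-specific libraries were made, per the labels' protocols. FastQC, StringTie and GRCh38 appear in the submitters' processing notes. The aligner, annotation release and strand use during counting were not given in the sources used here. The deposited table holds FPKM as the authors computed them, for 3 libraries with 1 library per group. The members, their roles and the list of further autophagy genes were chosen with earlier results of these data known.

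Symbols came from a gene name table, and positions, gene types and exon overlaps from GENCODE release 29 on GRCh38. Each FPKM equals whole reads divided by gene length and library total, so library totals were read from the step of the low values. For each gene the whole length nearest to that of GENCODE was taken for which every library came out at a whole number, given how the decimals were rounded. This worked for 19218 of 19219 genes above 0, on totals of 10698480 (shNC), 9528312 (sh1089-1) and 8359832 (sh1089-2) reads. Of the genes solved, 61.9% had the exon length of GENCODE 29. For the rest, the authors' gene models may differ from those behind the exon overlaps given here. The recovered reads served for counting intervals, shares of reads and overlapping genes, and no count test was run. The reading back was tested on simulated data.

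Differences are those of log2(FPKM + 1) among genes with a mean of at least 1 FPKM, and a gene passed at 1.5-fold on that scale. Adding 1 shrinks differences of genes with low FPKM. Folds of single genes are plain FPKM ratios. All members are covered. Members at least 1.5-fold from shNC with either hairpin, SQSTM1 and the LC3 and GABARAP genes were given in full, and of the further autophagy genes those at least 1.5-fold from shNC with either hairpin. Alternatives were a pseudocount of 0.1, no filter or a mean of at least 5 FPKM, TPM, centring on the median of all genes, a threshold of 2-fold, and protein-coding genes with at least 100 reads. Leaving out the 18 members that share exon bases with another listed gene was added after the data were seen. The neighbours of a gene are the 50 nearest genes passing the filter. Python 3.11.15, numpy 2.4.6, pandas 2.3.3 and scipy 1.17.1 were used.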

Additional observations from a re-analysis of the deposited data

How the results depend on the processing

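The median differences of the members kept their sign under the 6 alternatives that give a median, from −0.34 to −0.27 in sh1089-1, −0.23 to −0.12 in sh1089-2 and 0.05 to 0.10 between the hairpin lines. The counts past 1.5-fold are small and moved more. In sh1089-1 the 6 lower members of 40 became 10 of 40 with a pseudocount of 0.1. The share of all genes that were lower moved with it, from 5.83% to 9.75%. The member count was 8 of 41 with TPM (all genes 10.7%) and 5 at a mean of at least 5 FPKM, on fewer genes. The count became 0 at 2-fold (all genes 1.51%), and 3 without the 18 members that share exon bases with another listed gene. That last setting tests fewer members, so its counts cannot be set directly against those out of 40. For that setting, centring, no filter and a mean of at least 5 FPKM, no share over all genes is given. Counts under these settings only show how the calls moved, and no result is read from them. In sh1089-2 the 1 lower member became 2 of 40 with a pseudocount of 0.1 (all genes 9.03%). The count was 2 of 41 with TPM (all genes 8.62%), and 0 without the overlapping members, which takes out SQSTM1. The 0 higher members in sh1089-2 became 1 with a pseudocount of 0.1 (all genes 6.97%), 2 with TPM (9.60%) and 1 with centring. Between the hairpin lines the 0 higher became 1 with a pseudocount of 0.1 (all genes 4.65%) and 1 with TPM (7.49%). The 1 lower became 0 at 2-fold (all genes 0.884%) and 0 without the overlapping members. Of the 60 further autophagy genes in sh1089-1, the 4 lower became 7 with a pseudocount of 0.1 (all genes 9.75%). The count was 2 at a mean of at least 5 FPKM, on fewer genes, and 8 of 67 with TPM (all genes 10.7%). The 0 higher became 1 of 67 with TPM (all genes 8.11%). In sh1089-2 the 1 lower became 2 with a pseudocount of 0.1 (all genes 9.03%) and 2 with no filter. The count was 0 at a mean of at least 5 FPKM and 4 of 67 with TPM (all genes 8.62%). Between the hairpin lines the 1 higher became 0 at a mean of at least 5 FPKM and 2 of 67 with TPM (all genes 7.49%). Over all genes, TPM tested 13817 in place of 11198 and moved the share of higher among 1.5-fold calls from 47.5% to 43.0% in sh1089-1, from 46.5% to 52.7% in sh1089-2 and from 51.8% to 60.2% between the hairpin lines. The cause of these shifts was not tested. No paired analysis was possible because each group is 1 library, and for the same reason no library could be left out. Depth limits GABARAP, with 21 to 45 reads a library, and ATG4A and ATG4C.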

Other observations

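Among 428 pairs of protein-coding genes on opposite strands that share exon bases and have at least 1000 reads each over the 3 libraries, ATG10 and RPS23 were the 1 pair whose reads differed by no more than 2% in every library. Of the 41 autophagy genes, 18 share exon bases with another listed gene. ATG7 shares 1596 with VGLL4, which had 662, 363 and 358 reads in shNC, sh1089-1 and sh1089-2 to its own 636, 463 and 484.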
